A study of Rattus norvegicus with 24 samples.

Results

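The genes described here are Fbxo32 (ENSRNOG00000006738) and Trim63 (ENSRNOG00000016543), which encode the best known ubiquitin ligases of muscle atrophy, and Foxo1 (ENSRNOG00000013397), which encodes a transcription factor that acts on both. They are 3 of the 23098 Ensembl gene IDs in the deposited count table, chosen by ID. Each of the 3 IDs stood on 1 line, and all 3 were among the 15065 genes that passed the filter on low counts. The table holds IDs without symbols, and the annotation used here carried no Ensembl IDs, so the symbols are those given with the choice of the IDs and could not be checked against the files.

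The study asked how the heart responds to a spinal cord injury (SCI) high in the thoracic cord. The tissue was free wall of the left ventricle, cut at mid level and frozen, from male Wistar rats. The 4 groups had 6 libraries each. Sham rats had the dura opened at a high thoracic level with the cord left whole, and were sampled 7 days after surgery. The other groups had the cord cut through at that level and were sampled 1 day, 3 days or 12 weeks later. No sham group was matched in time to any injured group, and no label says outright that every library came from a different rat. The labelled tissue could not be checked against marker genes, because the IDs could not be tied to symbols.

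Muscle protein is broken down in large part by the ubiquitin and proteasome system, in which a ligase tags a chosen protein for destruction. Fbxo32, also called atrogin-1 or MAFbx, is the F-box subunit that picks the substrates of an SCF ligase, and Trim63, also called MuRF1, is a RING finger ligase that sits on the sarcomere and acts on thick filament and other contractile proteins. Foxo1 is held in the cytoplasm when insulin or IGF signals activate the kinase Akt, and enters the nucleus to raise transcription of both ligases when those signals fall or when glucocorticoids are high. In skeletal muscle both ligases are classic markers of denervation, disuse and fasting, and in the heart they are known from mechanical unloading and from the restraint of hypertrophy. Because Foxo1 is controlled mainly through phosphorylation and location, its RNA level is not a measure of its activity.

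Fbxo32 and Trim63 were higher than sham at 1 and 3 days after cord transection, whereas Foxo1 was level with sham at 1 day. Foxo1 was higher than sham at 3 days and highest at 12 weeks. The calls of Trim63 at 1 day and of Foxo1 at 3 days lay close to the threshold. Fbxo32 was also called higher than sham at 12 weeks, a call lost without any 1 of 3 libraries. The ligases had the same order of group means, with 3 days highest, then 1 day, then 12 weeks, then sham. For Foxo1 the order was 12 weeks, 3 days, 1 day and sham, the last pair being almost equal. Taken over the 4 groups at once, each of the 3 genes varied by edgeR's quasi-likelihood F test, with F values of 13.4 for Fbxo32 (adjusted p = 0.000221), 7.88 for Trim63 (adjusted p = 0.00321) and 17.7 for Foxo1 (adjusted p = 4.43e-05). The same test called 48.1% of all tested genes, so variation over the groups was common in these hearts.

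**Figure D1:**
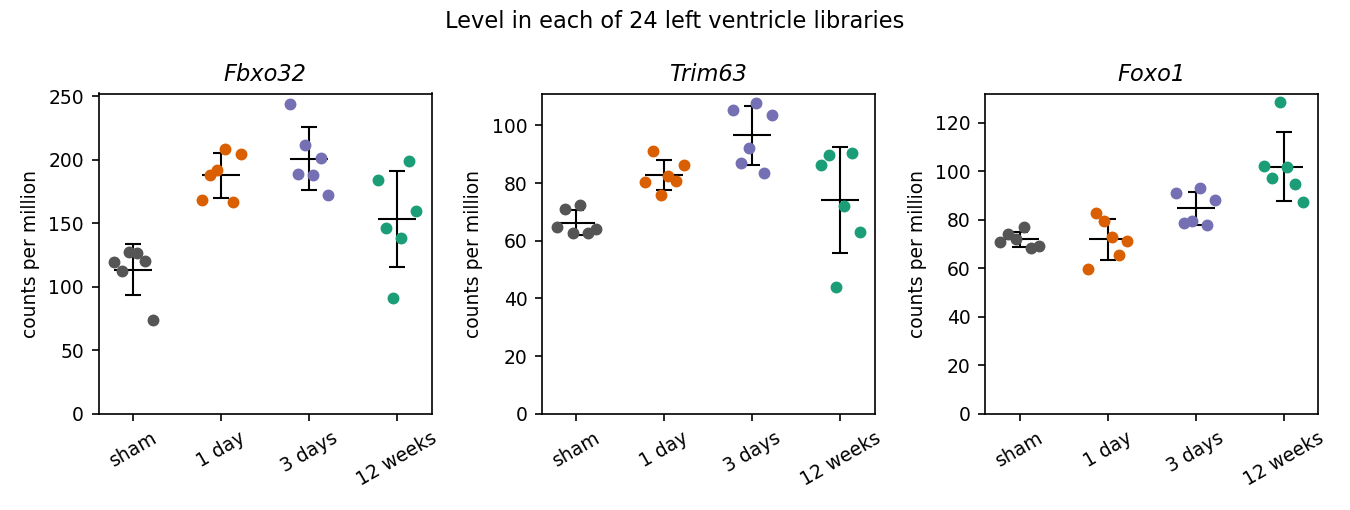
Level of each gene in CPM (counts scaled to library size, vertical axes from 0) in every library of the 4 groups, with the mean as a horizontal bar and the SD as a whisker (n = 6 per group). All injured libraries at 1 and 3 days lie above all sham libraries for Fbxo32 and Trim63, and all 12 week libraries lie above all sham libraries for Foxo1.

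Levels are given as CPM, the count of a gene scaled to the size of its library with TMM factors, and rest on counts per library of 1957 to 11287 for Fbxo32, 1283 to 5136 for Trim63 and 1245 to 5043 for Foxo1. Total counts per library ran from 15002476 to 70340174. In bulk tissue a change in the share of muscle cells and a change in RNA per cell cannot be told apart. One library, 12 week replicate 3, had the lowest mean correlation with its own group (0.968, where all libraries spanned 0.968 to 0.989). The next lowest were 3 day replicate 5 (0.9705) and 12 week replicate 1 (0.973). The TMM factor of 12 week replicate 3, 0.879, was also the lowest of all. This library had the lowest Fbxo32 and Trim63 and the highest Foxo1 level of its group. Results that rest on it are therefore also given without it. Libraries carry the numbers 57 to 68 where they belong to sham or 3 days, and 77 to 88 where they belong to 1 day or 12 weeks, and no label says what the numbers mark. Only the comparisons of 3 days with sham and of 12 weeks with 1 day lie within 1 run of consecutive numbers. In the others a difference between these runs of numbers and one between groups cannot be told apart. Within each run the groups hold separate blocks of numbers, so number order and group cannot be told apart there either.

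By its estimates, Fbxo32 showed the largest acute rise of the 3 genes. Its lead over Trim63 passed the test of their ratio, given below, at 1 day but not at 3 days. In sham its level had a lowest, median and highest value of 73.67, 120.0 and 127.6 CPM (mean 113.4 ± 20.2, SD, n = 6). At 1 day these were 166.7, 189.9 and 208.5 CPM (187.9 ± 17.7), and at 3 days 172.4, 195.2 and 243.6 CPM (200.9 ± 24.8). No library at either time reached down into the sham range. Relative to sham it was 1.66-fold higher at 1 day (log2 0.73, SE 0.14, edgeR adjusted p = 0.000543) and 1.77-fold higher at 3 days (log2 0.82, SE 0.141, adjusted p = 0.000265). Among all tested genes, 94.8% had a lower log2 fold change at 1 day and 96.7% at 3 days. The 3 day comparison lies within 1 run of library numbers.

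By 12 weeks Fbxo32 stood between sham and the acute times. Its lowest, median and highest level were 91.44, 152.8 and 198.9 CPM (153.1 ± 37.9, SD, n = 6), and 5 of the 6 libraries lay above every sham library. The gene was called 1.35-fold higher than sham (log2 0.43, SE 0.14, adjusted p = 0.0284). This call was lost without sham replicate 6, 12 week replicate 1 or 12 week replicate 5, with adjusted p-values up to 0.0812 and log2 fold changes no lower than 0.34, and also in a fit of only the 12 week and sham libraries (adjusted p = 0.0815). Sham replicate 6 is the lowest sham library for this gene, and without it the values at 1 and 3 days were 0.64 and 0.73, both still called (adjusted p = 0.00132 and 6e-04). Against 3 days Fbxo32 had fallen by 0.39 on the log2 scale at 12 weeks (SE 0.14, adjusted p = 0.0347). That fall was not called without 3 day replicate 1 or 3, or 12 week replicate 2, 3 or 4, with a value of -0.28 without 12 week replicate 3 (adjusted p = 0.0778). It was also lost when libraries were scaled by their totals alone (adjusted p = 0.103) or only these 2 groups were fitted (adjusted p = 0.0738). The log2 fold changes of 12 weeks against 1 day, -0.30 (95% interval -0.58 to -0.01, adjusted p = 0.106), and of 3 days against 1 day, 0.10 (-0.19 to 0.38, adjusted p = 0.778), were not called. The former was -0.18 without 12 week replicate 3 (adjusted p = 0.249), and -0.39 and called without 12 week replicate 5 (adjusted p = 0.0354).

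Trim63 had the same order of group means, with smaller differences from sham. Its sham libraries were tightly grouped, with a lowest, median and highest level of 62.52, 64.46 and 72.39 CPM (66.23 ± 4.33, SD, n = 6). The values were 75.98, 81.72 and 91.18 CPM at 1 day (82.83 ± 5.26) and 83.68, 97.86 and 107.9 CPM at 3 days (96.58 ± 10.3). Again no library at these times overlapped sham. It stood 1.25-fold above sham at 1 day (log2 0.32, SE 0.117, adjusted p = 0.0469) and 1.46-fold above at 3 days (log2 0.54, SE 0.118, adjusted p = 0.00229). The 1 day call lay close to the threshold and was lost when any 1 of 11 libraries was left out: sham replicates 1, 3, 5 and 6, 1 day replicates 1, 2, 4, 5 and 6, and 3 day replicates 1 and 2. The value itself then stayed between 0.29 and 0.35 over all 24 omissions, with adjusted p-values of 0.00437 to 0.0896 (0.091 when libraries were scaled by their totals alone), while the 3 day call was kept in all of them. The lowest of these for 1 day, 0.00437, came without 12 week replicate 3, a library of neither group. An edgeR fit of only the 1 day and sham libraries gave an adjusted p of 0.000346.

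At 12 weeks the Trim63 libraries spread widely, from 43.9 over a median of 79.14 to 90.44 CPM (74.23 ± 18.4, SD, n = 6). They overlapped every other group, 3 lying above all sham libraries and 1 below all of them. The log2 fold change against sham was 0.16 (95% interval -0.08 to 0.41, adjusted p = 0.341), which was not called. Without 12 week replicate 3, the library at 43.9 CPM, it was 0.28 and called (adjusted p = 0.0215). From 3 days to 12 weeks Trim63 fell by 0.38 on the log2 scale (SE 0.118, adjusted p = 0.0158), and this call was kept without any single library, with a value of -0.27 (adjusted p = 0.0206) without 12 week replicate 3. It was lost with scaling by library totals alone (adjusted p = 0.0743) and in a fit of only these 2 groups (adjusted p = 0.0792). The log2 fold changes were 0.22 for 3 days against 1 day (95% interval -0.02 to 0.46, adjusted p = 0.332) and -0.16 for 12 weeks against 1 day (-0.40 to 0.08, adjusted p = 0.313), neither of them called. The latter was -0.05 without 12 week replicate 3 (adjusted p = 0.716).

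Foxo1 kept to another course. The sham libraries had a lowest, median and highest level of 68.15, 71.39 and 76.93 CPM (71.85 ± 3.21, SD, n = 6), and the 1 day libraries 59.69, 72.07 and 82.62 CPM (71.89 ± 8.59). The 1 day libraries lay on both sides of sham, 2 above and 2 below its whole range. The log2 fold change at 1 day was 0.00 (95% interval -0.17 to 0.17, adjusted p = 0.997). At 3 days the values were 77.81, 83.86 and 92.95 CPM (84.69 ± 6.81), all above sham, a 1.18-fold difference (log2 0.24, SE 0.0817, adjusted p = 0.0453). This call too was close to the threshold: it was lost without any 1 of sham replicates 1, 2, 3, 5 and 6, 1 day replicates 4 and 6, 3 day replicates 1, 4 and 6, and 12 week replicate 4, with adjusted p-values up to 0.1, and without the filter on low counts (adjusted p = 0.0595). The values stayed between 0.21 and 0.26. The call was kept without 12 week replicate 3 (edgeR adjusted p = 0.0159) and in a fit of only the 3 day and sham libraries (adjusted p = 0.00898).

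At 12 weeks Foxo1 reached 87.34, 99.38 and 128.6 CPM as its lowest, median and highest level (101.9 ± 14.1, SD, n = 6). Every library lay above every sham and every 1 day library. The log2 fold change was 0.50 against sham (SE 0.0818, adjusted p = 0.000123) and 0.50 against 1 day (SE 0.0817, adjusted p = 6.1e-05), each 1.42-fold, and both calls were kept without any single library. Without 12 week replicate 3, the library at 128.6 CPM, they were 0.43 and 0.42. The comparison with 1 day lies within 1 run of library numbers. Against 3 days the log2 fold change was 0.27 (SE 0.0818, adjusted p = 0.0152), which was not called without 12 week replicate 3 (0.19, adjusted p = 0.0523), and was 0.15 (adjusted p = 0.184) when 12 week replicate 1 and 3 day replicate 5, the next least like their groups, were left out as well. From 1 day to 3 days it was 0.24 (95% interval 0.07 to 0.41) with an adjusted p of 0.115, not called, and 0.0493 without 12 week replicate 3, a library of neither group that enters through the shared estimate of the spread.

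**Figure D2:**
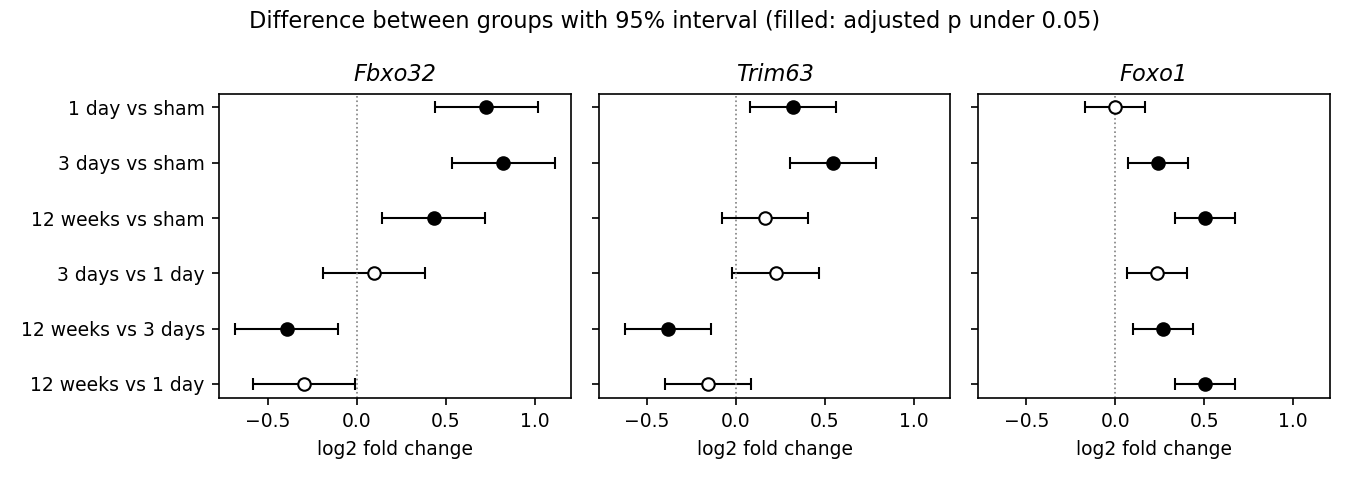
Log2 fold change (horizontal axis) of each gene in the 6 comparisons of groups, from edgeR over all 24 libraries, with its 95% interval. Filled points passed the adjusted p of 0.05. The intervals of the ligases lie to the right of 0 at 1 and 3 days and to the left of 0 for 12 weeks against 3 days, whereas those of Foxo1 lie to the right of 0 in every comparison but 1 day against sham.

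Calls of these genes were read against the share of all tested genes called in the same direction. At 1 day 2 of the 3 genes were called higher than sham, where 11.9% of all tested genes were, and the same 2 had no overlap with sham, as did 6.90% of all genes in that direction. At 3 days all 3 were called higher against 8.88% of all genes, and all 3 were free of overlap against 4.16%. At 12 weeks Fbxo32 and Foxo1 were called higher against 11.3%, and Foxo1 was free of overlap against 4.38%. None of the 3 was called lower than sham at any time, where 12.1%, 8.59% and 10.9% of all tested genes were at 1 day, 3 days and 12 weeks. Between 3 days and 1 day none was called, where 2.74% of genes were called in either direction, and the unadjusted p was under 0.05 for Foxo1 (0.00773) but not for Fbxo32 (0.495) or Trim63 (0.0697). DESeq2 called none of the 3 there either. Between 12 weeks and 3 days both ligases were called lower, against 15.3% of genes, and Foxo1 higher, against 16.0%. Between 12 weeks and 1 day Foxo1 was called higher, against 17.8%, with no overlap between the groups, against 6.98%. The sham libraries are shared by the first 3 comparisons, so these counts are not independent.

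**Figure D3:**
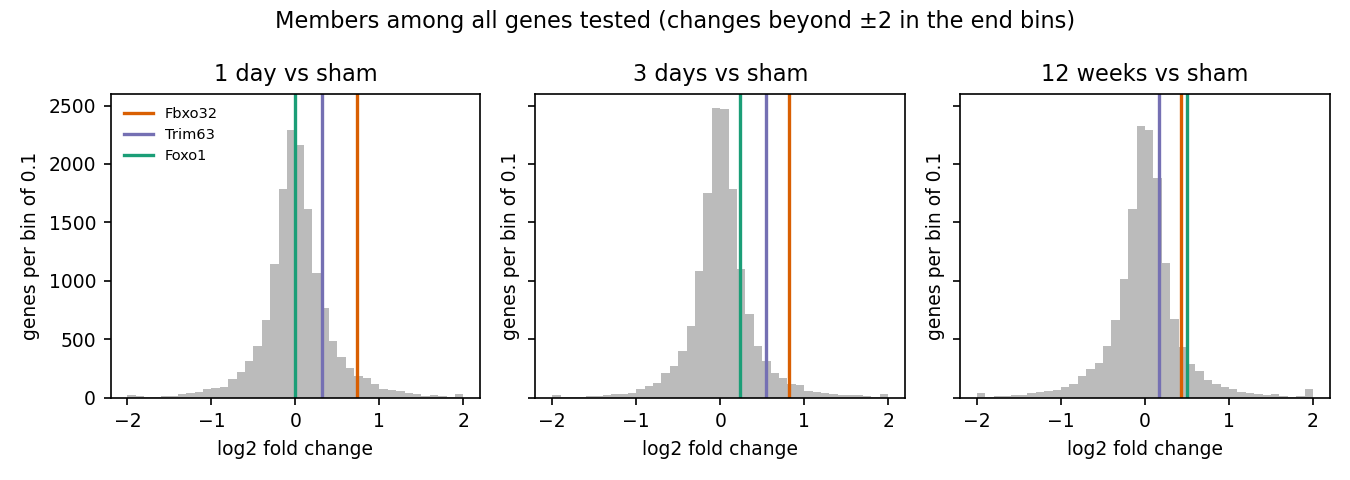
Log2 fold changes against sham of all 15065 tested genes (grey, number of genes per bin of 0.1, changes beyond 2 in the end bins) at 1 day, 3 days and 12 weeks, with the 3 genes as vertical lines. Foxo1 lies at the centre at 1 day and beyond both ligases at 12 weeks, the latter only with 12 week replicate 3 included (without it 0.43 for Foxo1 and 0.54 for Fbxo32).

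The place of the 3 genes within these distributions differed by time. At 1 day Fbxo32 exceeded 94.8% and Trim63 83.4% of all tested genes in log2 fold change, with Foxo1 at the median, and at 3 days the shares were 96.7%, 92.9% and 80.1%. At 12 weeks Foxo1 exceeded 91.7% of genes, Fbxo32 89.8% and Trim63 72.6%. The order of Foxo1 and Fbxo32 at 12 weeks rested on 12 week replicate 3: without it the log2 fold change against sham was 0.43 for Foxo1 and 0.54 for Fbxo32. The changes were moderate in size: 9.06% of all genes had a larger absolute log2 fold change than Fbxo32 at 1 day, and 16.8% had a larger one than Foxo1 at 12 weeks.

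Whether the genes moved by the same factor was tested on the ratio of their counts within each library, a quantity that does not depend on scaling between libraries. In each of the 6 pairs of groups 3 ratios were compared by a two-sided exact permutation test over every arrangement of 6 against 6, adjusted over the 18 tests. The smallest p this design allows is 0.00216. The ratio of Fbxo32 to Trim63 had a lowest, median and highest log2 value of 0.20, 0.85 and 1.03 in sham, and 1.04, 1.16 and 1.34 at 1 day, with no overlap. The mean difference was 0.42 (SE 0.135, exact permutation p = 0.00216, adjusted p = 0.00649), so Fbxo32 rose by a larger factor than Trim63 at 1 day, with a difference of 0.31 without sham replicate 6 (adjusted p = 0.00779). At 3 days and 12 weeks the differences in this ratio were 0.30 and 0.29 (SE 0.153 and 0.149, exact permutation adjusted p = 0.101 for each) and did not pass. They were 0.19 and 0.18 without sham replicate 6, and the 12 week difference passed without 12 week replicate 2 (0.36, adjusted p = 0.0273). Between the injured groups the differences in this ratio were within 0.14 on the log2 scale and none passed.

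The ratios to Foxo1 changed course between the acute times and 12 weeks. Fbxo32 over Foxo1 had median log2 values of 0.74 in sham, 1.42 at 1 day, 1.32 at 3 days and 0.72 at 12 weeks. It was higher than sham at 1 day by 0.75 (SE 0.128) and at 3 days by 0.61 (SE 0.141), with no overlap at either time (exact permutation p = 0.00216 and adjusted p = 0.00649 for each). At 12 weeks it was lower than at 1 day by 0.83 (-0.83, SE 0.236, exact permutation adjusted p = 0.00649) and than at 3 days by 0.69 (-0.69, SE 0.243, adjusted p = 0.013). Against sham it differed by -0.08 (SE 0.255, exact permutation p = 0.784), or 0.13 without 12 week replicate 3, so its sign depended on that library. Without that library the falls from 1 and 3 days were -0.62 and -0.48 and both passed (adjusted p = 0.00649 and 0.026).

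Trim63 over Foxo1 varied little within sham and within 3 days. It ran from 0.868 to 0.960 on the linear scale in sham and from 1.08 to 1.17 at 3 days, 2 ranges that did not touch. The log2 differences from sham were 0.31 at 3 days (SE 0.0288, exact permutation adjusted p = 0.00649) and 0.33 at 1 day (SE 0.072, adjusted p = 0.00974). At 12 weeks the log2 ratio spread from -1.55 to -0.07 and was below 3 days by 0.68 (-0.68, SE 0.225, exact permutation adjusted p = 0.00649) and below 1 day by 0.70 (-0.70, SE 0.234, adjusted p = 0.00974). Without 12 week replicate 3 these were -0.46 and -0.49 and both passed (adjusted p = 0.00649 and 0.0146). The difference from sham, -0.37 (SE 0.225, adjusted p = 0.101), did not pass, was -0.16 without 12 week replicate 3, and passed without 12 week replicate 2 or 5 (-0.45 and -0.46, adjusted p = 0.0319 and 0.0156).

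**Figure D4:**
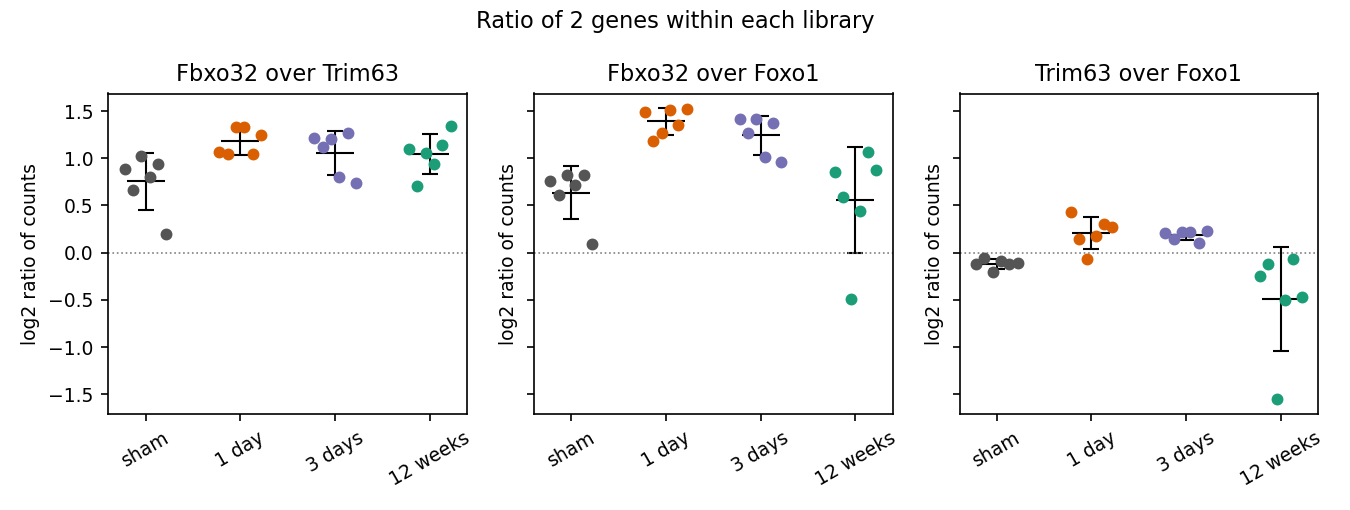
Log2 ratio of the counts of 2 genes within each library (vertical axes), by group, with the mean as a bar and the SD as a whisker (n = 6 per group). The ratios of the ligases to Foxo1 have higher means at 1 and 3 days than in sham, and lower means at 12 weeks than at 1 and 3 days. With all libraries included, neither passed the permutation test against sham at 12 weeks. In both of those panels 12 week replicate 3 is the lowest point.

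Across libraries of the same group the 3 genes were only loosely coupled. After the group means were taken away, the deviations of Fbxo32 and Trim63 over the 24 libraries had r = 0.597 (permutation p = 0.0302, adjusted over 3 pairs 0.0906) and rho = 0.286 (permutation p = 0.232). Leaving out 12 week replicate 3 and sham replicate 6, the libraries farthest from the median for Fbxo32, r was 0.316, so the relation rests on them. Fbxo32 and Foxo1 had r = -0.233 and rho = 0.012 (permutation p = 0.341 and 0.958), and Trim63 and Foxo1 had r = -0.174 and rho = 0.299 (permutation p = 0.541 and 0.192). For the last pair r was 0.495 without 12 week replicates 3 and 5. Within single groups of 6, Trim63 and Foxo1 rose and fell together at 3 days, with r = 0.975 (exact permutation p = 0.0111, adjusted over 12 tests 0.133), rho = 1 (exact permutation p = 0.00278, the smallest that 6 libraries allow, adjusted 0.0334), and r = 0.997 without the 2 libraries farthest from the median. Fbxo32 and Trim63 had r = 0.86 at 12 weeks (exact permutation p = 0.0333, adjusted 0.133), but 0.194 without the 2 farthest libraries. Trim63 and Foxo1 had r = 0.868 and rho = 0.829 in sham (exact permutation p = 0.0236 and 0.0583, adjusted 0.133 and 0.35), but r = 0.062 without the 2 farthest. At 12 weeks Foxo1 had negative r with Fbxo32 (-0.802, exact permutation p = 0.0764, and 0.007 without the 2 farthest) and with Trim63 (-0.665, p = 0.157, and -0.688 without the 2 farthest), and neither passed. Of the 12 relations within groups that of Trim63 and Foxo1 at 3 days was the only one to pass after adjustment, and by rho only. Both genes are scaled by the same library factor, and its part in this relation was not tested.

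**Figure D5:**
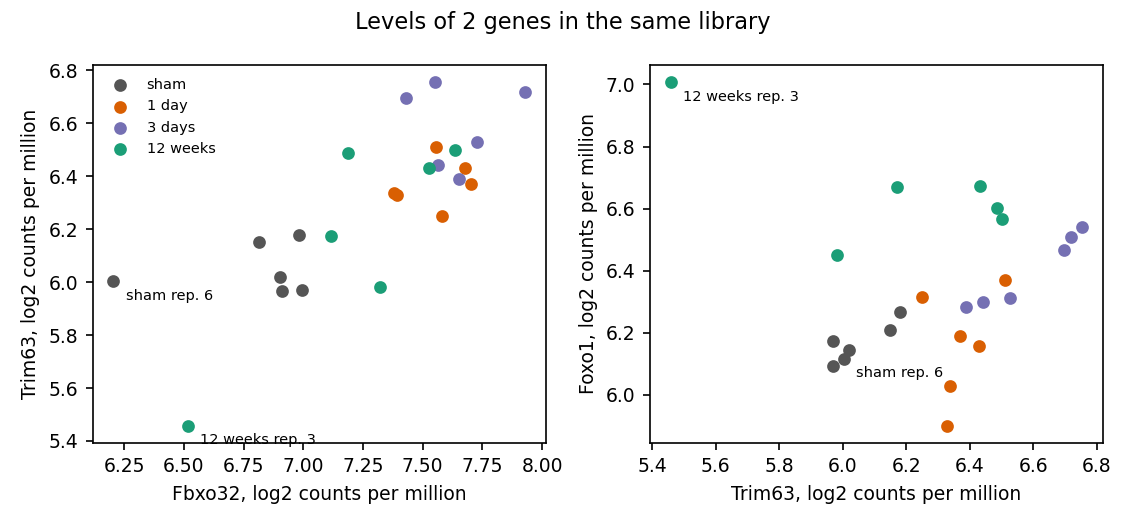
Log2 CPM of Trim63 against Fbxo32 (left) and of Foxo1 against Trim63 (right) in the same library, coloured by group. At left all 1 and 3 day libraries lie up and to the right of sham, the 12 week libraries overlap both, and 12 week replicate 3 has the lowest Trim63. At right all 12 week libraries lie above all sham and 1 day libraries, with overlap with 3 days.

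Over all 24 libraries, group differences included, Trim63 was among the genes whose pattern was most like that of Fbxo32. By Pearson's r of log2 CPM among genes with a mean log2 CPM of at least 1, it ranked 60 of 11513 (r = 0.781), and Fbxo32 ranked 24 of 11513 in likeness to Trim63. Foxo1 was unlike both, with r = 0.013 to Fbxo32 and -0.041 to Trim63. With the group means taken away, Trim63 ranked 198 in likeness to Fbxo32, and Fbxo32 ranked 470 in likeness to Trim63. These values describe libraries that share groups and scaling and carry no test.

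The promoter of Trim63 is shown because it carries letters that both the FoxO factors and the glucocorticoid receptor are known to bind, and sites of both kinds near the start of this gene have been described in rodents and humans. The sequences are from RefSeq on build GRCr8, matched by symbol for 2 of the 3 genes (Trim63 and Foxo1, not Fbxo32). The count table was made on mRatBN7.2, so these coordinates do not apply to it. Each window holds 250 bases before the annotated start of the gene and 50 after it. Capitals mark the FoxO core GTAAACA, read here on the other strand as TGTTTAC, and the glucocorticoid receptor hexamer AGAACA, read on the other strand as TGTTCT. The first window is chr5:151816986-151817285 and the second chr2:138462724-138463023, both on the plus strand.
Trim63: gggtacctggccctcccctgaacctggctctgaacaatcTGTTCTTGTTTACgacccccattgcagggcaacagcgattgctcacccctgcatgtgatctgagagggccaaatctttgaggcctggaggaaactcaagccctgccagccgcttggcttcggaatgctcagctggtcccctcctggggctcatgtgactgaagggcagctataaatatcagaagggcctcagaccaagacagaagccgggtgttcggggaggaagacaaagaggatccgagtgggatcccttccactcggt
Foxo1: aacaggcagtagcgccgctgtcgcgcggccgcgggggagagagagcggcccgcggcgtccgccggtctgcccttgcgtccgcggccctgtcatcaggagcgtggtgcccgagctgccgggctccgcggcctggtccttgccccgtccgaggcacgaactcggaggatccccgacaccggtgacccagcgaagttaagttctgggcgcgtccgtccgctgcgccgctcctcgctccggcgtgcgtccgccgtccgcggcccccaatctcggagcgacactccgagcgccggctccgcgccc

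In Trim63 the hexamer lay 211 to 206 bases and the FoxO core 205 to 199 bases before the start, directly next to each other and without overlap. Of the 33469 promoter windows of this length, 3.78% held the FoxO core and 20.7% the hexamer on either strand. The shorter forkhead core TGTTT, which overlaps the FoxO core, was present in the Trim63 window and in 51.9% of all windows. The E-box CANNTG, which reads the same on both strands, occurred 3 times in Trim63 and at least 1 time in 72.1% of windows. The exact paired form of the hexamer, AGAACA followed by any 3 bases and TGTTCT, was in neither window and in 0.0149% of all. In Trim63, however, the letters up to and including the marked hexamer read tgaacaatcTGTTCT, which differ from that form only in their first base. Looser versions of the paired form were not searched for. None of the forms searched for occurred in the Foxo1 window. That window was 75.0% G and C, against 57.0% in Trim63 and a median of 51.7% over all windows. A match of letters describes the sequence and says nothing of binding in these hearts.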

How the data were processed

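RNA from 24 left ventricle libraries was measured by strand-specific paired-end sequencing after removal of ribosomal RNA, per the labels' protocols. The deposited values are raw counts per gene in 1 table, named in the labels as protein-coding genes. The tools listed in the submitters' processing notes are featureCounts 2.0.6, STAR 2.7.11a and FastQC 0.12.1, and the build is mRatBN7.2. The strand setting and annotation release were not given in the sources used here. The table had 26166 lines for 23098 IDs, and the repeated lines of 781 IDs were identical, so each ID was used once. In 60 pairs of libraries of the same group the chi-square statistic divided by its degrees of freedom was 11.1 to 93.8, above sampling noise, and no library was merged with another.

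The deposited counts went into edgeR 4.0.16 under R 4.3.3 (filterByExpr by group, TMM scaling, 1 term per group over all 24 libraries, 20 residual degrees of freedom, quasi-likelihood F test, two-sided). Benjamini-Hochberg adjustment ran over all 15065 genes, and a gene is called at an adjusted p under 0.05. Each SE was the log2 fold change divided by the root of its F statistic. Log2 CPM used a prior count of 2. P-values measure the spread between these libraries, which may in part be technical. Ratios and correlations used permutation tests (all arrangements, all orders within a group, or 100000 draws within groups). The edgeR fit was tested on simulated counts, and the permutation test of means on a made-up set of values. Other steps were not tested in this way. The alternatives were other scalings, no filter, DESeq2 1.42.0, limma-voom (limma 3.58.1), only the 2 groups compared, a replicate block, each library left out, and, added after the data were seen, the 3 libraries least like their groups left out together. Deviations of same-numbered libraries correlated with a median of -0.016 (-0.237 to 0.175 over 36 pairs). Differently numbered libraries were not compared in this way, so these values show no pairing by number but cannot exclude it. The genes and tests were chosen with earlier results of these data known. Rules for naming: the 3 genes always, and at most 2 further IDs by mean correlation with them. Lists of other atrophy, FoxO, autophagy, proteasome and cell type genes could not be run, since no source used here ties their symbols to the IDs.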

Additional observations from a re-analysis of the deposited data

Results flagged for a closer look

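In 4 of the 24 groups of 6 values examined (3 genes and 3 ratios in 4 groups) 1 library lay far from the rest by Dixon's test, which chance gives in about 1 of 20 groups. The ratios use the counts of the same 3 genes, so the 24 groups are not independent. All 4 cases fell on sham replicate 6 or 12 week replicate 3. Fbxo32 was at 73.67 CPM in sham replicate 6, which also had the lowest log2 ratio of Fbxo32 to Foxo1 in its group, 0.0874. Foxo1 was at 128.6 CPM in 12 week replicate 3, and the log2 ratio of Trim63 to Foxo1 in that library was -1.55. The values of the comparisons without each of these libraries stand with the results.

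Some times after injury differed by direct test of the injured groups (edgeR), in which the sham level has no part. Between 12 weeks and 3 days the difference on the log2 scale was -0.39 for Fbxo32, -0.38 for Trim63 and 0.27 for Foxo1, and between 12 weeks and 1 day it was 0.50 for Foxo1. For the log2 ratios (exact permutation test) it was -0.69 and -0.83 for Fbxo32 over Foxo1 and -0.68 and -0.70 for Trim63 over Foxo1, for 12 weeks against 3 days and against 1 day in that order. Without 12 week replicate 3 the 12 week against 3 day differences of Fbxo32 and Foxo1 were no longer called.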

How the results depend on the processing

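None of the 18 log2 fold changes changed sign while called, over 33 alternatives each (594 values: 549 kept their side of the threshold, 40 lost the call and 5 gained it). With library totals alone, Trim63 at 1 day (0.34), and Fbxo32 and Trim63 at 12 weeks against 3 days (-0.34 for each), were not called. With only the 2 groups compared, Fbxo32 at 12 weeks (0.43) and Fbxo32 and Trim63 at 12 weeks against 3 days (-0.39 and -0.38) were not called. With no filter Foxo1 at 3 days (0.24) was not called, with more genes then tested. Without 12 week replicates 1 and 3 and 3 day replicate 5, chosen after seeing the data, Trim63 at 12 weeks (0.25) and Foxo1 at 3 days against 1 day (0.26) were called, and Fbxo32 (-0.32) and Foxo1 (0.15) at 12 weeks against 3 days were not. The cause of these changes was not tested. With a replicate block Fbxo32 at 1 day was 0.74, and the block changed no call of a member.

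With single libraries left out, the ranges for values whose call changed were 0.29 to 0.35 (Trim63, 1 day), 0.21 to 0.26 (Foxo1, 3 days), 0.34 to 0.54 (Fbxo32, 12 weeks), 0.10 to 0.28 (Trim63, 12 weeks), 0.19 to 0.28 (Foxo1, 3 days against 1 day), -0.49 to -0.28 (Fbxo32, 12 weeks against 3 days), 0.19 to 0.31 (Foxo1, 12 weeks against 3 days) and -0.39 to -0.18 (Fbxo32, 12 weeks against 1 day). At 12 weeks against sham the log2 difference ranged from 0.18 to 0.36 for Fbxo32 over Trim63 and from -0.46 to -0.16 for Trim63 over Foxo1. Calls over all genes moved beyond 1.5 times only for 3 days against 1 day, where edgeR called 186 higher and 227 lower. These were 370 and 447 with DESeq2, 119 and 140 with 2 groups, 467 and 551 without the 3 libraries, 88 higher with library totals, and 77 to 296 and 93 to 357 with 1 library left out. Members had at least 1245 counts in every library, so the spread between libraries and not depth limits these values.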

Other observations

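The spread of the ligases between libraries rested in part on single libraries. The coefficient of variation of CPM was 24.8% at 12 weeks for Fbxo32 and again 24.8% for Trim63, against 9.40% and 6.35% at 1 day and 12.3% and 10.7% at 3 days. In sham it was 17.8% for Fbxo32 and 6.54% for Trim63. Foxo1 stood at 4.47% in sham and at 12.0%, 8.04% and 13.9% in the injured groups in order of time. Without replicate 3 the 12 week values were 15.5% for Fbxo32, 15.1% for Trim63 and 6.24% for Foxo1, and without sham replicate 6 the sham value of Fbxo32 was 4.97%. These spreads were not compared by test.

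The genes with the highest mean correlation with all 3 members over the 24 libraries, among 11511 others, were ENSRNOG00000020336 (mean r = 0.616) and ENSRNOG00000003510 (mean r = 0.606), which no source used here names. The former was higher than sham at all times, with log2 fold changes of 0.25, 0.38 and 0.21 (edgeR adjusted p = 0.0043, 0.000123 and 0.0136). The latter rose from 47.39 CPM in sham to 119.4, 137.9 and 123.4 CPM at 1 day, 3 days and 12 weeks, with log2 fold changes of 1.33, 1.54 and 1.38 (adjusted p = 3.93e-05, 1.62e-05 and 3.97e-05). Their r with Foxo1 alone was 0.193 and 0.304. Both IDs were chosen by likeness over these same libraries, group differences included. Their changes from sham are therefore not independent of the choice.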
